A study of Homo sapiens with 22 samples.

Results

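Growth-restraining genes, several of them known targets of FOXO transcription factors, were followed across every group of an RNA-seq experiment in H1299, an established line from a human lung carcinoma of the non-small cell type. The 10 genes were YPEL2, YPEL3, YPEL5, ABTB1, PDCD4, KLHL24, CCNG2, PIK3IP1, TXNIP and SESN1. They were chosen by function, and some of them because they were among the largest falls after inhibition of the kinase GSK3. The comparison with control siRNA is taken as the one that chose them, so their values there are a description and were not tested. Of the 37908 genes counted, 9 of these 10 could be matched to an identifier, and TXNIP was not analysed here.

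All 8 groups were of cells that carried an shRNA against BRCA2 under the control of doxycycline (DOX). Without DOX they are called BRCA2-proficient, and after 3 days with 2 µg/mL DOX BRCA2-deficient. In each background, β-catenin (gene CTNNB1) was either depleted by siRNA (siβ-catenin) or left intact with a control siRNA. The GSK3 inhibitor LY2090314 (GSK3i) was then given at 250 nM for 24 h or left out. "Untreated" denotes control siRNA without GSK3i. There were 3 libraries in each group except the BRCA2-proficient untreated and siβ-catenin groups, which had 2 each, numbered 2 and 3. DOX was given only to the BRCA2-deficient groups, so an effect of DOX itself and of BRCA2 depletion cannot be told apart.

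FOXO factors are transcription factors that the kinase AKT keeps out of the nucleus when growth factors are present. When AKT activity is low they enter the nucleus and switch on genes that slow the cell cycle, damp PI3K signalling and promote autophagy. GSK3 marks β-catenin for degradation, and its inhibition lets β-catenin accumulate and activate WNT target genes with TCF/LEF factors. GSK3 also phosphorylates many other proteins, so the question put to these data was whether the fall of the growth-restraining genes under GSK3i required β-catenin.

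The YPEL genes encode small, highly conserved zinc-binding proteins. YPEL3 is known as a growth-suppressive gene and YPEL5 as part of a ubiquitin ligase complex. PDCD4 binds the RNA helicase eIF4A and restrains translation. CCNG2 encodes an unconventional cyclin linked to cell cycle arrest, KLHL24 an adaptor of a CUL3 ubiquitin ligase, and ABTB1 a BTB-domain protein associated with growth suppression. PIK3IP1 is a membrane protein that binds and restrains PI3K, and SESN1 is a stress-induced inhibitor of mTORC1.

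In GRCh37 coordinates, all 9 genes are protein-coding. YPEL2 lies at chr17:57409016-57479090 on the plus strand, YPEL3 at chr16:30103635-30108236 on the minus strand and YPEL5 at chr2:30369807-30383399 on the plus strand. ABTB1 lies at chr3:127391778-127399769, KLHL24 at chr3:183353398-183402307, PDCD4 at chr10:112631553-112659764 and CCNG2 at chr4:78078360-78354542, all on the plus strand. PIK3IP1 lies at chr22:31677580-31688520 and SESN1 at chr6:109305512-109416049, both on the minus strand. Exons of PDCD4 share up to 1277 bases with BBIP1 on the opposite strand, a gene with a mean count of 337.3. Because the strand setting of the counting is not stated, the PDCD4 counts are uncertain to that extent.

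The promoters of the genes were searched for sites of FOXO (GTAAACA), TCF/LEF (CTTTGAT) and E-box-binding factors (CACGTG) on both strands, since 8 of the 9 genes analysed moved together. RefSeq promoter windows of GRCh38.p14, from 250 bases before to 50 after a transcription start, were held for 8 of the 9 genes analysed and for TXNIP, 13 windows in all, and there was none for ABTB1. The FOXO letters stood in 3 of the 13 windows (PIK3IP1, YPEL3 and TXNIP, whose expression was not analysed), against 3.42% of 35116 promoters. The E-box letters stood in 1 window, that of CCNG2, against 7.26% of promoters. No window held the TCF/LEF letters, which were in 2.62% of promoters. A match describes the letters in the window and not binding. The windows of YPEL2 and PDCD4, whose falls are described first below, and of YPEL3 and PIK3IP1, which hold the FOXO letters, are printed. They run up to base 30 after the start, 5′ to 3′ on the strand of the gene, with the FOXO letters in capitals.
YPEL2 (chr17:59331405-59331684, plus strand): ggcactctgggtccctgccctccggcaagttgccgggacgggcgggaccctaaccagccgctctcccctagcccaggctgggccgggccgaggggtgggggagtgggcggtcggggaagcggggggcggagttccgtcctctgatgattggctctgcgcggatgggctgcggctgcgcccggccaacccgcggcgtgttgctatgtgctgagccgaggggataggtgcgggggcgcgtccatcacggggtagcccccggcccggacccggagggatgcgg
PDCD4 (chr10:110871678-110871957, plus strand): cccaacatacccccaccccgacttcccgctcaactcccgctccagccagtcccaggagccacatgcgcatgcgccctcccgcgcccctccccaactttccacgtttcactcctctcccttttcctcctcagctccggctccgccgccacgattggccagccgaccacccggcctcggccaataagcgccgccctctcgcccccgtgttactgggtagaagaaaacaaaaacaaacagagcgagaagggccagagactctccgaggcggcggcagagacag
YPEL3 (chr16:30096184-30096463, minus strand): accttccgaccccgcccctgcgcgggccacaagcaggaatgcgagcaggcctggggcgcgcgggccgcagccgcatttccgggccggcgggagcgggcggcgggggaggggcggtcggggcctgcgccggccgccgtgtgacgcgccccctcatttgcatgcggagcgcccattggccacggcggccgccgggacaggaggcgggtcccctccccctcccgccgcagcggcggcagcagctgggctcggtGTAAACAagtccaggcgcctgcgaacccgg
PIK3IP1 (chr22:31292459-31292738, minus strand): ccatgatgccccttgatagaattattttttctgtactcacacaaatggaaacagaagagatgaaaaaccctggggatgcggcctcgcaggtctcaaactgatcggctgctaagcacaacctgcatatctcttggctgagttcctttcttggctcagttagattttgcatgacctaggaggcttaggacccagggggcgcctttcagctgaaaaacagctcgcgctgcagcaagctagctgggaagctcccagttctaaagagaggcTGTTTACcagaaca
In YPEL3 the FOXO letters ran from base 1 to base 7 after the start. In PIK3IP1 their reverse complement ran from base 17 to base 23.

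Depth, checks and the identity of the line were read in all 22 libraries. The libraries held 18938266 to 29280122 counts each. All levels below are counts normalised by DESeq2 size factors. BRCA2 stood at 71.4 to 225 in the BRCA2-deficient libraries and 514 to 1111 in the BRCA2-proficient ones. CTNNB1 stood at 977 to 2217 with siβ-catenin and 5206 to 8669 with control siRNA. AXIN2, a direct WNT target, stood at 1027 to 1747 with GSK3i and control siRNA, 59.5 to 82.4 in untreated cells and 65.0 to 227 in the 11 siβ-catenin libraries. AXIN2 in every siβ-catenin library thus stood below every GSK3i library with control siRNA. The epithelial and mesenchymal genes of the line, KRT8, KRT18 and VIM, were abundant (2037 to 35310), and PTPRC, COL3A1, SFTPC and ALB, which mark other cell types, stood at 0 to 7.84.

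3 BRCA2-proficient siβ-catenin libraries stood apart from their labels, in 8 of the 9 genes as well as in the score below. A response score was computed for each library from 2624 genes that differed between GSK3i + siβ-catenin and siβ-catenin in BRCA2-deficient cells, with a mean of at least 100 normalised counts, leaving out the 9 genes. On this score the mean of BRCA2-deficient siβ-catenin is 0 and that of GSK3i + siβ-catenin is 1. In BRCA2-deficient cells, the libraries without GSK3i scored −0.1 to 0.15 and those with GSK3i 0.93 to 1.23. BRCA2-proficient untreated libraries scored 0.26 and 0.28, and GSK3i libraries 1.26 to 1.28. The library labelled BRCA2-proficient siβ-catenin replicate 2 scored 1.12, and the library labelled siβ-catenin replicate 3 scored 0.58. The library labelled BRCA2-proficient GSK3i + siβ-catenin replicate 2 scored 0.26, against 1.17 in each of replicates 1 and 3. BRCA2 and CTNNB1 followed the labels in these 3 libraries. AXIN2, which responds to GSK3i, stood at 145, 73.1 and 117 in the libraries labelled GSK3i + siβ-catenin replicates 1, 2 and 3, and at 67.2 and 65.0 in those labelled siβ-catenin replicates 2 and 3. By AXIN2, replicate 2 of GSK3i + siβ-catenin was again the lowest of its group, whereas siβ-catenin replicate 2 was at the untreated level. The labels were kept, and results are given with all libraries and without those named here. BRCA2-deficient cells, where no library stood apart in this way, are therefore described first. The score genes were chosen from the BRCA2-deficient siβ-catenin and GSK3i + siβ-catenin groups. For those groups the separation on the score was therefore set in advance.

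**Figure D1:**
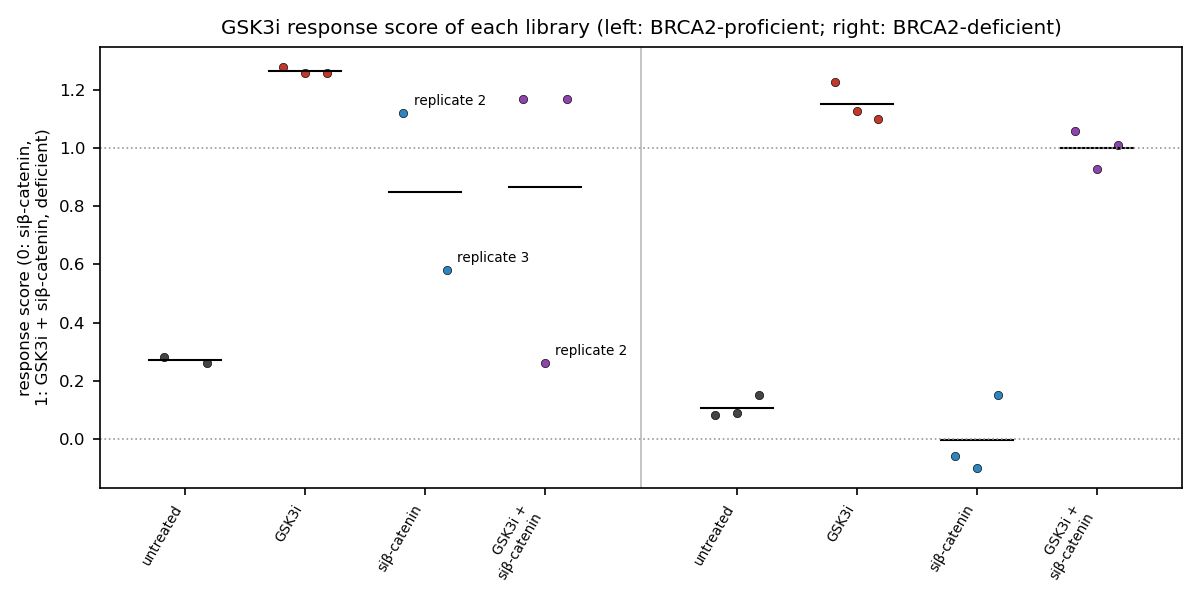
Response score of each of the 22 libraries (vertical axis, no unit) by group (horizontal axis). Points are libraries, black lines are group means and dotted lines mark scores of 0 and 1. Replicate 2 of BRCA2-proficient siβ-catenin lies at 1.12 and replicate 2 of BRCA2-proficient GSK3i + siβ-catenin at 0.26, each near libraries of the opposite GSK3i label.

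With control siRNA, 8 of the 9 genes stood lower with GSK3i in both backgrounds, with no overlap between the groups. Of all genes tested, 30% stood wholly lower in the same way in BRCA2-proficient cells and 21.1% in BRCA2-deficient ones. Genes called lower made up 13.8% of the genes tested in BRCA2-deficient cells and 14.2% in BRCA2-proficient cells, counting as called an adjusted p below 0.05 with a log2 fold change beyond 0.5. This comparison served to choose some of the genes and nothing is read from their number here. YPEL2 stood at 232, 323 and 297 in BRCA2-deficient untreated libraries and at 28.6, 18.6 and 18.8 with GSK3i. It stood at 245 and 368 in BRCA2-proficient untreated libraries and at 11.7, 17.1 and 9.02 with GSK3i. Every GSK3i library was thus far below every untreated one. The log2 fold change of YPEL2 was −3.71 ± 0.3 (SE) in BRCA2-deficient and −4.62 ± 0.37 in BRCA2-proficient cells, the 13th and 9th largest fall among the genes tested.

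PDCD4, the translation repressor, showed falls of similar size. It stood at 1611, 1920 and 1551 in BRCA2-deficient untreated libraries and at 108, 115 and 117 with GSK3i. In BRCA2-proficient cells it stood at 1847 and 1597 untreated and at 129, 157 and 164 with GSK3i. The log2 fold changes were −3.9 ± 0.18 and −3.54 ± 0.17. ABTB1 changed by −3.54 ± 0.24 and −3.61 ± 0.19, KLHL24 by −2.75 ± 0.26 and −3.55 ± 0.17, CCNG2 by −2.66 ± 0.26 and −2.93 ± 0.18 and PIK3IP1 by −3.23 ± 0.32 and −3.01 ± 0.34, in BRCA2-deficient and BRCA2-proficient cells. The falls of YPEL3 (−1.22 ± 0.25 and −1.53 ± 0.23) and YPEL5 (−1.29 ± 0.18 and −1.23 ± 0.16) were smaller, so the 3 YPEL genes did not fall to the same extent.

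SESN1 was the exception. It stood at 421 to 556 in BRCA2-deficient untreated libraries and 498 to 588 with GSK3i, and at 376 to 474 and 436 to 483 in BRCA2-proficient cells. Its log2 differences of 0.1 ± 0.18 and 0.12 ± 0.18 lay within their error. Of the genes that fell, YPEL3 in BRCA2-deficient cells had the smallest change.

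**Figure D2:**
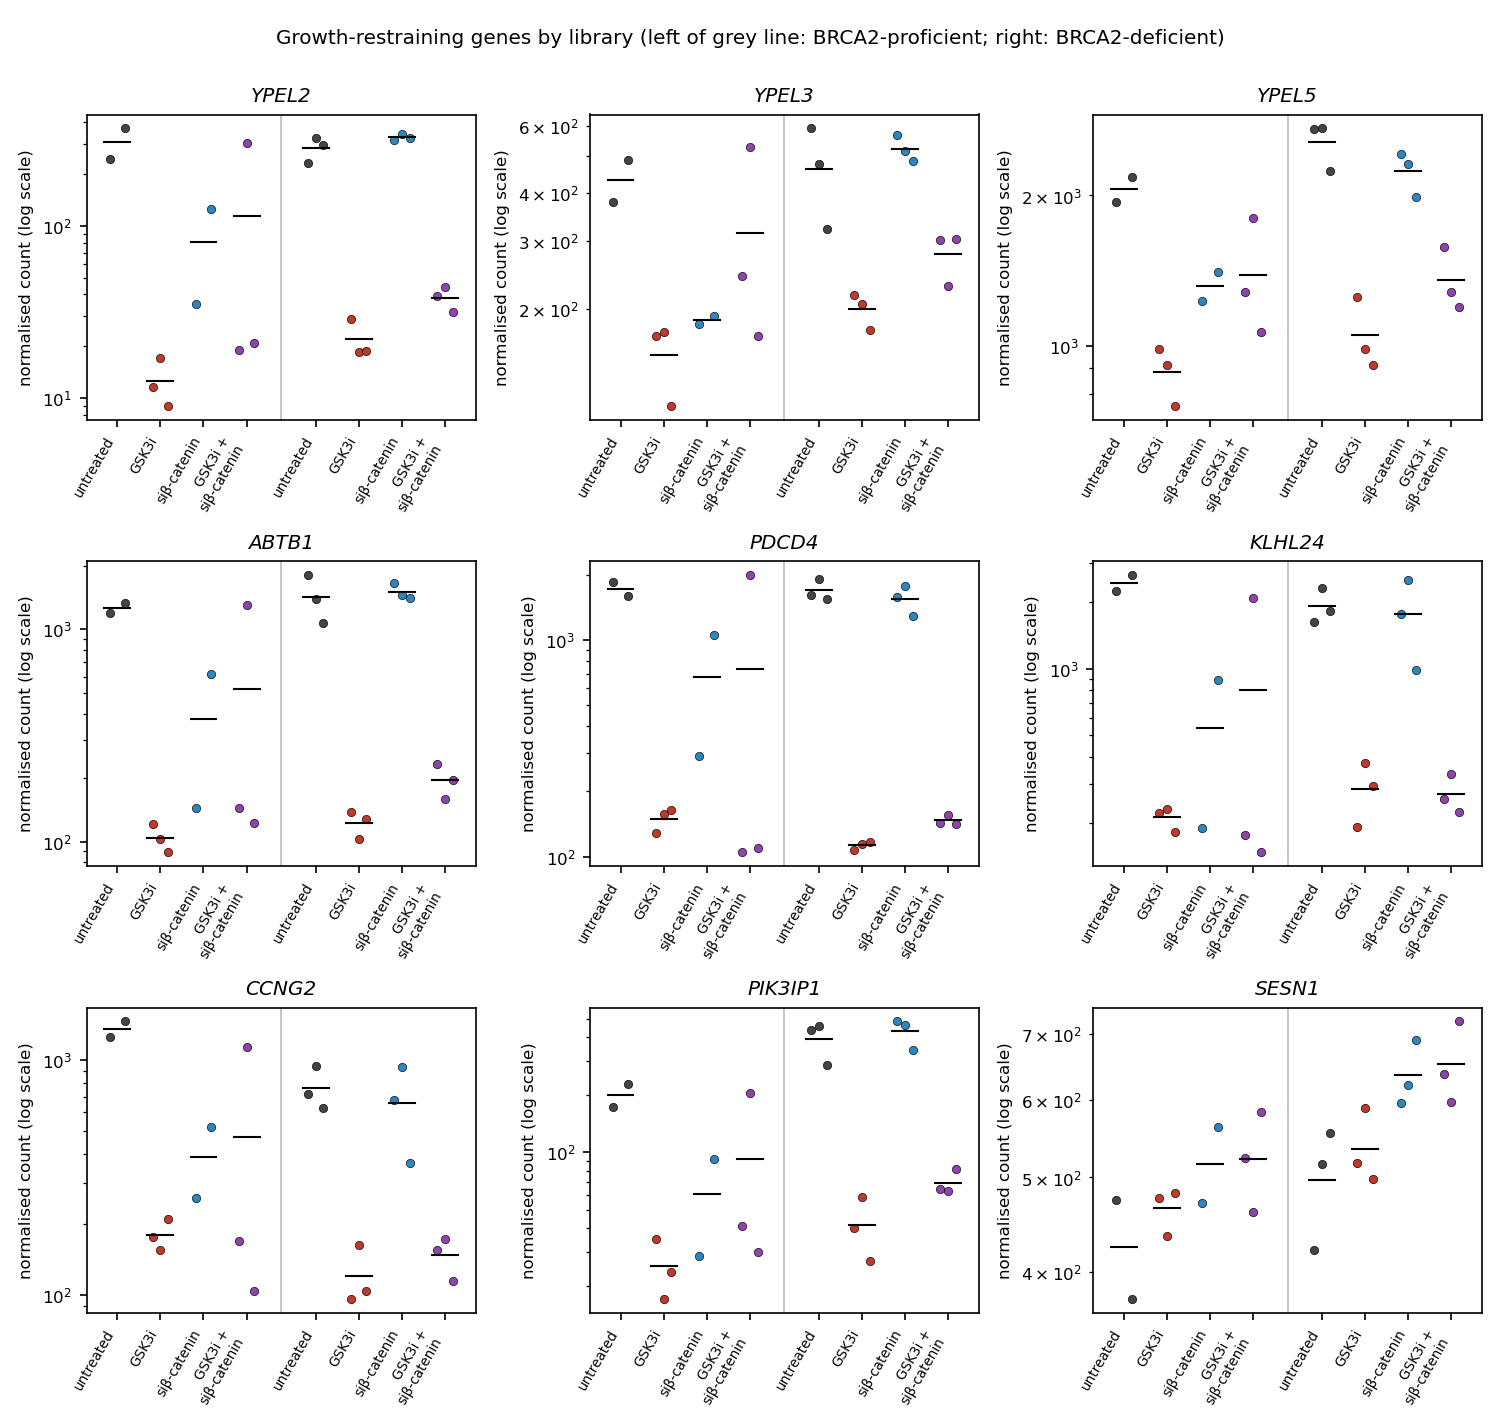
Normalised count (vertical axes, log scale, each panel with its own range) of the 9 genes in every library of the 8 groups. Points are libraries and black lines are group means. In BRCA2-deficient cells, 8 genes stand lower in both GSK3i groups than in both groups without it, whereas SESN1 does not; in BRCA2-proficient siβ-catenin groups single libraries lie far from the rest.

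The comparison of GSK3i + siβ-catenin with siβ-catenin alone used no library of the comparison above and asked whether the falls occurred with β-catenin depleted. The genes were chosen with earlier results of these data known, so it is not certain that this comparison had no part in the choice. In BRCA2-deficient cells, 8 of the 9 genes were lower with GSK3i at adjusted p below 0.05 (DESeq2 Wald test, Benjamini-Hochberg adjustment over 17610 genes), against 11.5% of all genes tested. The groups did not overlap for these 8 genes, as for 20.6% of all genes in that direction. The count stayed at 8 with edgeR and in every other setting tried, including leaving out each library in turn.

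YPEL2 stood at 316, 342 and 322 with siβ-catenin and at 39.0, 44.3 and 31.6 with GSK3i + siβ-catenin, a log2 fold change of −3.1 ± 0.23 (adjusted p 8.46e-39). All 3 GSK3i libraries were below all 3 others. YPEL3 stood at 568, 514 and 484 and at 302, 229.7 and 304, a change of −0.9 ± 0.18 (adjusted p 1.87e-05). For YPEL5, the values were 2428, 2309 and 1985 without and 1580, 1281 and 1192 with GSK3i (−0.72 ± 0.17, adjusted p 0.000244). Of these 3 YPEL genes YPEL2 changed most, as it did with control siRNA.

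Of the genes tied to cell cycle arrest and translation, PDCD4 had the largest change. It stood at 1577, 1771 and 1291 with siβ-catenin and at 143, 156 and 142 with GSK3i + siβ-catenin (−3.39 ± 0.18, adjusted p 5.02e-76). CCNG2 stood at 676, 937 and 364 and at 155, 173 and 115 (−2.15 ± 0.29, adjusted p 1.77e-11). Replicate 3 of siβ-catenin was the lowest of its group for CCNG2 and still stood above every GSK3i library.

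For the ubiquitin ligase adaptor KLHL24, the libraries stood at 1770, 2518 and 988 without and at 257, 332.5 and 224 with GSK3i (−2.69 ± 0.28, adjusted p 1.09e-19). ABTB1 stood at 1647, 1458 and 1407 and at 232, 159 and 196 (−2.93 ± 0.18, adjusted p 3.06e-55). Both genes were lower in every GSK3i library, although KLHL24 varied more among the siβ-catenin libraries than ABTB1.

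Among the genes that restrain PI3K and mTORC1, PIK3IP1 stood at 485, 464 and 343 with siβ-catenin and at 64.0, 62.5 and 81.3 with GSK3i + siβ-catenin (−2.62 ± 0.22, adjusted p 5.5e-29). SESN1 stood at 595, 621 and 690.4 and at 638, 598 and 722 (0.04 ± 0.16, adjusted p 0.88). The SESN1 groups overlapped, and the 95% interval of its change was −0.27 to 0.35.

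**Figure D3:**
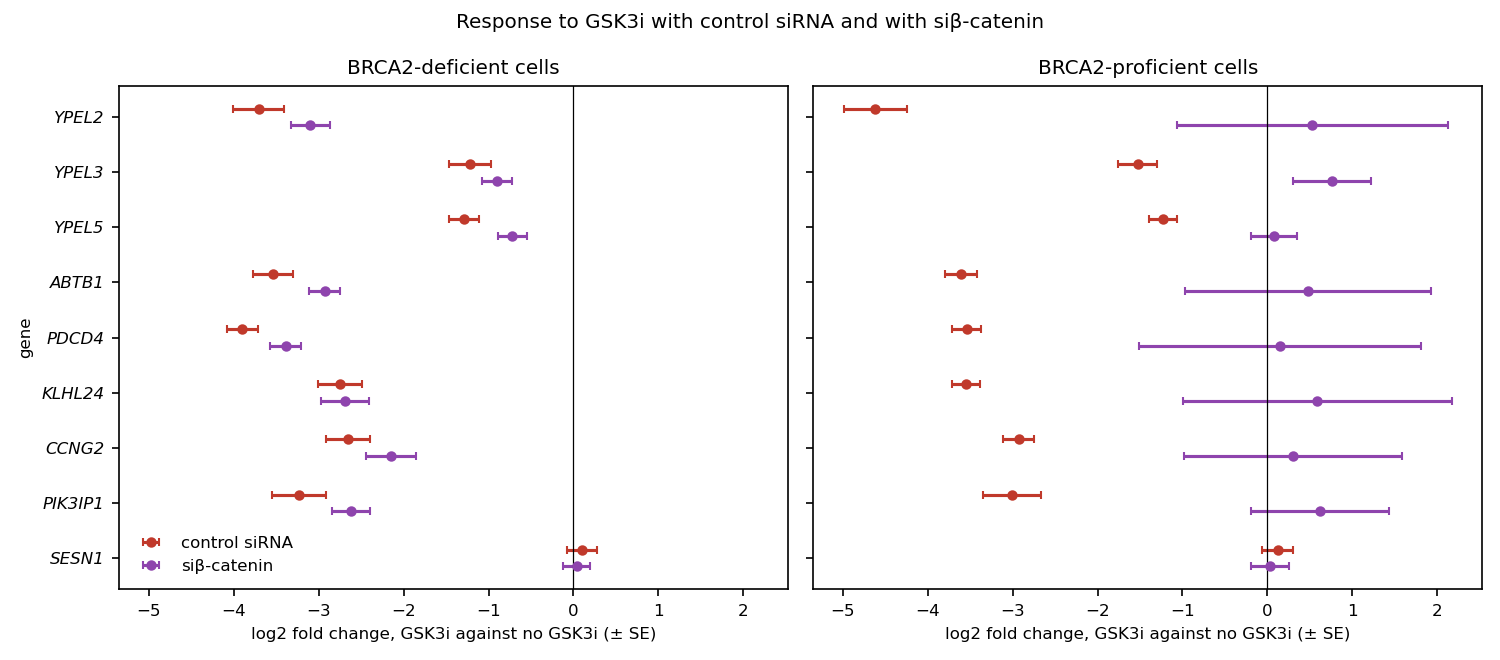
Log2 fold change of each gene with GSK3i against without it (horizontal axis, bars ± SE) with control siRNA and with siβ-catenin, in BRCA2-deficient (left) and BRCA2-proficient cells (right). In BRCA2-deficient cells both points of each of 8 genes lie below 0, with siβ-catenin closer to 0 by 0.04 to 0.6. In BRCA2-proficient cells as labelled the siβ-catenin points lie near 0 with wide errors.

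The responses to GSK3i with control siRNA and with siβ-catenin were set side by side as a description, because the former helped to choose the genes. The depletion was partial. Over all libraries, CTNNB1 stood at 977 to 2217 with siβ-catenin and 5206 to 8669 with control siRNA. AXIN2 still rose with GSK3i in BRCA2-deficient siβ-catenin cells (0.98 ± 0.27). In BRCA2-deficient cells the log2 fall with siβ-catenin was 83% of that with control siRNA for YPEL2, 74% for YPEL3, 56% for YPEL5, 83% for ABTB1, 87% for PDCD4, 98% for KLHL24, 81% for CCNG2 and 81% for PIK3IP1. The difference between the responses, on the log2 scale, was 0.6 for YPEL2 (95% interval −0.05 to 1.26) and 0.5 for PDCD4 (0.04 to 0.95). For YPEL5 it was 0.55 (0.08 to 1.02) and for ABTB1 0.59 (−0.01 to 1.19). It was 0.59 for PIK3IP1 (−0.17 to 1.35), 0.49 for CCNG2 (−0.39 to 1.37), 0.3 for YPEL3 (−0.3 to 0.9) and 0.04 for KLHL24 (−0.82 to 0.9). A gene picked for a large fall tends to show a larger fall in the comparison that picked it, so these differences and their intervals are not read as a test of β-catenin.

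In BRCA2-proficient cells as labelled, the same comparison called none of the 9 genes (DESeq2), and only 0.0529% of all genes. Neither DESeq2 nor edgeR gave an unadjusted p below 0.05 for any of the 9, and edgeR likewise called 0. The libraries labelled GSK3i + siβ-catenin replicates 1, 2 and 3 stood at 19.1, 304 and 20.9 for YPEL2 and at 105, 1998 and 109 for PDCD4. Replicates 2 and 3 labelled siβ-catenin stood at 35.3 and 126 for YPEL2 and at 291 and 1056 for PDCD4. Replicate 2 of GSK3i + siβ-catenin was thus in the range of untreated cells for YPEL2 and above it for PDCD4. The fitted changes of the 9 genes were between 0.03 and 0.76, and that of PDCD4 was 0.15 ± 1.66.

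The other genes split the libraries in the same places. GSK3i + siβ-catenin replicates 1, 2 and 3 stood at 144, 1303 and 123 for ABTB1, at 177, 2080 and 147 for KLHL24 and at 170.2, 1141 and 104 for CCNG2. PIK3IP1 stood at 41.3, 204 and 30.03, YPEL3 at 244, 529 and 170.2 and YPEL5 at 1283, 1805 and 1065. Replicates 2 and 3 labelled siβ-catenin stood at 144 and 617 for ABTB1, 189.5 and 887 for KLHL24, 259 and 518 for CCNG2, 28.6 and 91.9 for PIK3IP1, 183 and 191 for YPEL3 and 1230 and 1404 for YPEL5. For all 8 genes replicate 2 of GSK3i + siβ-catenin was the highest of its group and siβ-catenin replicate 2 the lower of its pair. SESN1 stood at 524, 461 and 583 and at 470.5 and 563, with no such split.

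Leaving out replicate 2 of both groups, an alternative chosen after seeing the data, left 1 siβ-catenin library against 2 with GSK3i. The lone library, replicate 3, is then assumed to vary like the others, and its response score was 0.58. DESeq2 then called 4 of the 9 genes lower, against 3.0% of all genes. These were PDCD4 (−3.3 ± 0.27, adjusted p 3.23e-31), KLHL24 (−2.45 ± 0.27, adjusted p 1.83e-16), ABTB1 (−2.21 ± 0.31, adjusted p 1.63e-10) and CCNG2 (−1.92 ± 0.36, adjusted p 6.49e-06). For YPEL2 (−2.65 ± 0.66) and PIK3IP1 (−1.37 ± 0.66) DESeq2 gave no adjusted p. YPEL3 (0.12 ± 0.38), YPEL5 (−0.26 ± 0.19) and SESN1 (−0.02 ± 0.23) were not called. Leaving out only GSK3i + siβ-catenin replicate 2, CCNG2 alone was called (−1.5, adjusted p 0.0499).

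Whether the response with siβ-catenin differed with BRCA2 status was tested as an interaction. None of the 9 genes was called by DESeq2 or edgeR, against 0.439% of all genes with DESeq2, which gave no p for YPEL2 (−3.6 ± 1.49) and ABTB1 (−3.4 ± 1.36). An unadjusted p was below 0.05 for 5 of the other 7 with DESeq2 and for 8 of the 9 with edgeR. YPEL3 had the lowest adjusted p, at a difference of −1.65 ± 0.48 (adjusted p 0.0742). Without replicate 2 of both BRCA2-proficient groups the count was again 0, and the differences were −1.26 ± 0.44 for PIK3IP1 (adjusted p 0.307), −1.02 ± 0.35 for YPEL3 (adjusted p 0.289), −0.74 ± 0.31 for ABTB1, −0.48 ± 0.29 for YPEL5 and −0.46 ± 0.44 for YPEL2. Those of PDCD4, KLHL24, CCNG2 and SESN1 were −0.25 to 0.06. Leaving out single libraries moved the count to between 0 and 3. It was 3 without BRCA2-proficient GSK3i + siβ-catenin replicate 3, 1 without replicate 1 of that group and 2 without siβ-catenin replicate 3. One model over all groups gave 5.

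The effect of siβ-catenin itself was measured with and without GSK3i, in comparisons that share libraries with the one that chose the genes. Under GSK3i in BRCA2-deficient cells, none of the 9 genes was called by DESeq2 or edgeR, against 5.52% of all genes with DESeq2. An unadjusted p was below 0.05 for 4 genes with DESeq2 and for 5 with edgeR. YPEL2 stood at 28.6, 18.6 and 18.8 with GSK3i and at 39.0, 44.3 and 31.6 when siβ-catenin was added, groups that did not overlap (0.8 ± 0.4, adjusted p 0.25). ABTB1 stood at 138, 103 and 128 and at 232, 159 and 196 (0.67 ± 0.24, adjusted p 0.0599). With the replicate number as a block, which pairs these libraries, ABTB1 was called (0.66 ± 0.21, adjusted p 0.00783). YPEL3 and YPEL5 also had an adjusted p below 0.05 in an alternative fit, but with a log2 fold change not beyond 0.5. In 6 of the 9 genes every library with both treatments was above every GSK3i library, as for 12.1% of all genes. SESN1, which did not fall with GSK3i, was among these 6, and YPEL5, KLHL24 and CCNG2 overlapped.

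Under GSK3i in BRCA2-proficient cells, YPEL5 was called higher with siβ-catenin (0.67 ± 0.22, adjusted p 0.0418), against 3.18% of all genes. With the replicate block 3 genes were called, YPEL2 (2.14 ± 0.6, adjusted p 0.0105), YPEL3 (0.94 ± 0.27, adjusted p 0.0151) and YPEL5 (0.65 ± 0.17, adjusted p 0.00561). DESeq2 gave no adjusted p for YPEL2, ABTB1, PDCD4 and KLHL24 in the fit without the block, because of an outlying count. Without the library labelled GSK3i + siβ-catenin replicate 2 the count was 0, and it was also 0 without any 1 of the 3 GSK3i libraries. It was 3 without GSK3i + siβ-catenin replicate 3. Whether the effect of siβ-catenin under GSK3i differed with BRCA2 status was tested as an interaction, which called none of the 9 genes with DESeq2 or edgeR and gave no unadjusted p below 0.05 with either, against 0.0057% of all genes called with DESeq2. DESeq2 gave no p for YPEL2, ABTB1 and PDCD4 there, so its 0 covers 6 genes. The count was again 0 without the library labelled BRCA2-proficient GSK3i + siβ-catenin replicate 2.

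Without GSK3i, siβ-catenin had no called effect on the 9 genes in BRCA2-deficient cells with DESeq2 or edgeR, against 2.03% of all genes with DESeq2. An unadjusted p was below 0.05 for 1 gene with either tool. YPEL2 differed by 0.21 ± 0.19 and PDCD4 by −0.13 ± 0.17, and for 8 of the 9 genes the groups overlapped. Of all genes tested, only 9.3% stood wholly lower and 9.8% wholly higher, so overlap was common and not particular to these genes. In BRCA2-proficient cells as labelled, 5 genes were called lower, against 1.96% of all genes: YPEL2 (−1.93 ± 0.5), YPEL3 (−1.22 ± 0.26), YPEL5 (−0.65 ± 0.19), CCNG2 (−1.82 ± 0.32) and PIK3IP1 (−1.74 ± 0.5). This comparison rests on the siβ-catenin libraries that scored 1.12 and 0.58 for the GSK3i response. EdgeR and one model over all groups called 0 of the 9. Each group holds 2 libraries, so leaving out 1 sets 1 library against 2, and only effect sizes are given for these fits. Without siβ-catenin replicate 2 they were −1.03 for ABTB1, −0.71 for PDCD4, −1.47 for KLHL24 and −0.55 for YPEL5. The change of YPEL2 was −1.29 without siβ-catenin replicate 2 and −3.13 without replicate 3, and that of PIK3IP1 was −1.13 and −2.82. Which of the 9 genes were called changed with the library left out, also where that was an untreated one.

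BRCA2 depletion was compared within each treatment. In untreated cells CCNG2 was lower in BRCA2-deficient cells, at 715, 949 and 628 against 1260 and 1465 (−0.86 ± 0.22, adjusted p 0.00343). PIK3IP1 was higher, at 434, 456 and 286 against 173 and 228 (0.94 ± 0.27, adjusted p 0.0112). These 2 of 9 genes compare with 6.91% of all genes. Neither was called with edgeR, with one model over all groups, or without either BRCA2-proficient untreated library, and PIK3IP1 was not called without BRCA2-deficient untreated replicate 2. The other 7 genes, YPEL2 (−0.14 ± 0.27) and PDCD4 (−0.05 ± 0.18) among them, were not called.

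With GSK3i, none of the 9 genes was called for BRCA2 status by DESeq2 or edgeR, against 6.81% of all genes with DESeq2, and an unadjusted p was below 0.05 for 1 gene with DESeq2 and 2 with edgeR. KLHL24 was called without BRCA2-deficient GSK3i replicate 1 (0.67, adjusted p 0.0131) and CCNG2 without replicate 2 (−0.86, adjusted p 0.0365). With siβ-catenin, 5 genes were called higher in BRCA2-deficient cells, against 13.6% of all genes: YPEL2 (1.99 ± 0.4), YPEL3 (1.46 ± 0.2), YPEL5 (0.74 ± 0.17), ABTB1 (1.96 ± 0.72) and PIK3IP1 (2.81 ± 0.39). These differences rest on the BRCA2-proficient siβ-catenin libraries named above. Leaving out either of them sets 1 library against 3, so only effect sizes are given for those fits. Without replicate 2 and without replicate 3, the difference was 1.35 and 3.19 for YPEL2, 1.26 and 3.36 for ABTB1 and 2.2 and 3.89 for PIK3IP1. ABTB1 was not called without any 1 of the BRCA2-deficient siβ-catenin libraries (adjusted p 0.105 to 0.153). Without BRCA2-proficient siβ-catenin replicate 3, PDCD4 and KLHL24 differed by 2.39 and 3.19. CCNG2 was called as well without BRCA2-deficient siβ-catenin replicate 3 (1.03). With GSK3i + siβ-catenin none was called by DESeq2 or edgeR, against 7.74% of all genes with DESeq2, and an unadjusted p was below 0.05 for 0 genes with DESeq2 and 2 with edgeR. DESeq2 gave no p for YPEL2, ABTB1, PDCD4 and KLHL24 there, so its 0 covers 5 genes. Without the library labelled BRCA2-proficient GSK3i + siβ-catenin replicate 2, KLHL24 was called higher in BRCA2-deficient cells (0.73, adjusted p 0.0327).

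The levels of YPEL2 in BRCA2-deficient cells fell in the order siβ-catenin (327 ± 13.8, SD, n = 3), untreated (284 ± 46.7, n = 3), GSK3i + siβ-catenin (38.3 ± 6.38, n = 3) and GSK3i (22.0 ± 5.76, n = 3). The first 2 groups overlapped, and there was a wide gap to the GSK3i groups. For PDCD4 the order was untreated (1694 ± 198), siβ-catenin (1546 ± 242), GSK3i + siβ-catenin (147 ± 8.04) and GSK3i (113 ± 4.94). Again the groups without GSK3i overlapped. In BRCA2-proficient untreated and GSK3i cells the levels were 307 ± 87.2 (n = 2) and 12.6 ± 4.1 (n = 3) for YPEL2 and 1722 ± 177 and 149.9 ± 18.2 for PDCD4. Per kilobase of exon, YPEL5 was the most abundant of the 9 genes in BRCA2-deficient untreated cells, at a normalised count of 748 ± 81.4, followed by PDCD4 (373 ± 43.6). YPEL2 was the least abundant (32.6 ± 5.37), so its large fold change is that of a weakly expressed gene.

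The other 2 members of the family, YPEL1 and YPEL4, had low counts and were called lower with GSK3i in BRCA2-deficient cells with siβ-catenin. YPEL1 stood at 67.2, 38.8 and 58.1 with siβ-catenin and at 6.0, 6.05 and 14.3 with GSK3i + siβ-catenin (−2.59 ± 0.46, adjusted p 9.49e-07). YPEL4 stood at 13.4, 14.3 and 10.2 and at 0, 1.01 and 0 (adjusted p 0.00126), a change for which no fold is given because the second group is at or near 0. YPEL4 passed the filter on low counts only through its siβ-catenin libraries, which fixed the direction of its change, so its call is not read as a result. YPEL1, YPEL2, YPEL3 and YPEL5 were called lower in that comparison, against 11.5% of all genes tested.

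The FOXO factors themselves did not all move together. FOXO4 was lower with GSK3i in BRCA2-deficient siβ-catenin cells, at 217 ± 13.8 against 985 ± 181 (SD, n = 3 each; −2.17 ± 0.19, adjusted p 1.83e-28). FOXO1 changed by −0.81 ± 0.21 (adjusted p 0.00154) and FOXO6 by −1.16 ± 0.31 (adjusted p 0.00157). FOXO3 stood at 2239 ± 47.5 and 2337 ± 210 and was not called (0.07 ± 0.14, adjusted p 0.776).

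FOXO3 followed another pattern across the groups. With control siRNA it stood at 2027 ± 459 in BRCA2-deficient untreated cells and 3864 ± 812 with GSK3i, a difference of 0.93 ± 0.23 (adjusted p 0.000595). It stood at 2650 ± 760 (n = 2) and 3711 ± 431 in BRCA2-proficient cells, where it was not called (0.47 ± 0.18). Under GSK3i it was lower with siβ-catenin in both backgrounds, by −0.73 ± 0.2 (adjusted p 0.00724) in BRCA2-deficient and −0.86 ± 0.14 (adjusted p 2.33e-07) in BRCA2-proficient cells. None of the 3 BRCA2-proficient GSK3i + siβ-catenin libraries stood apart for FOXO3, at 1980 to 2081.

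**Figure D4:**
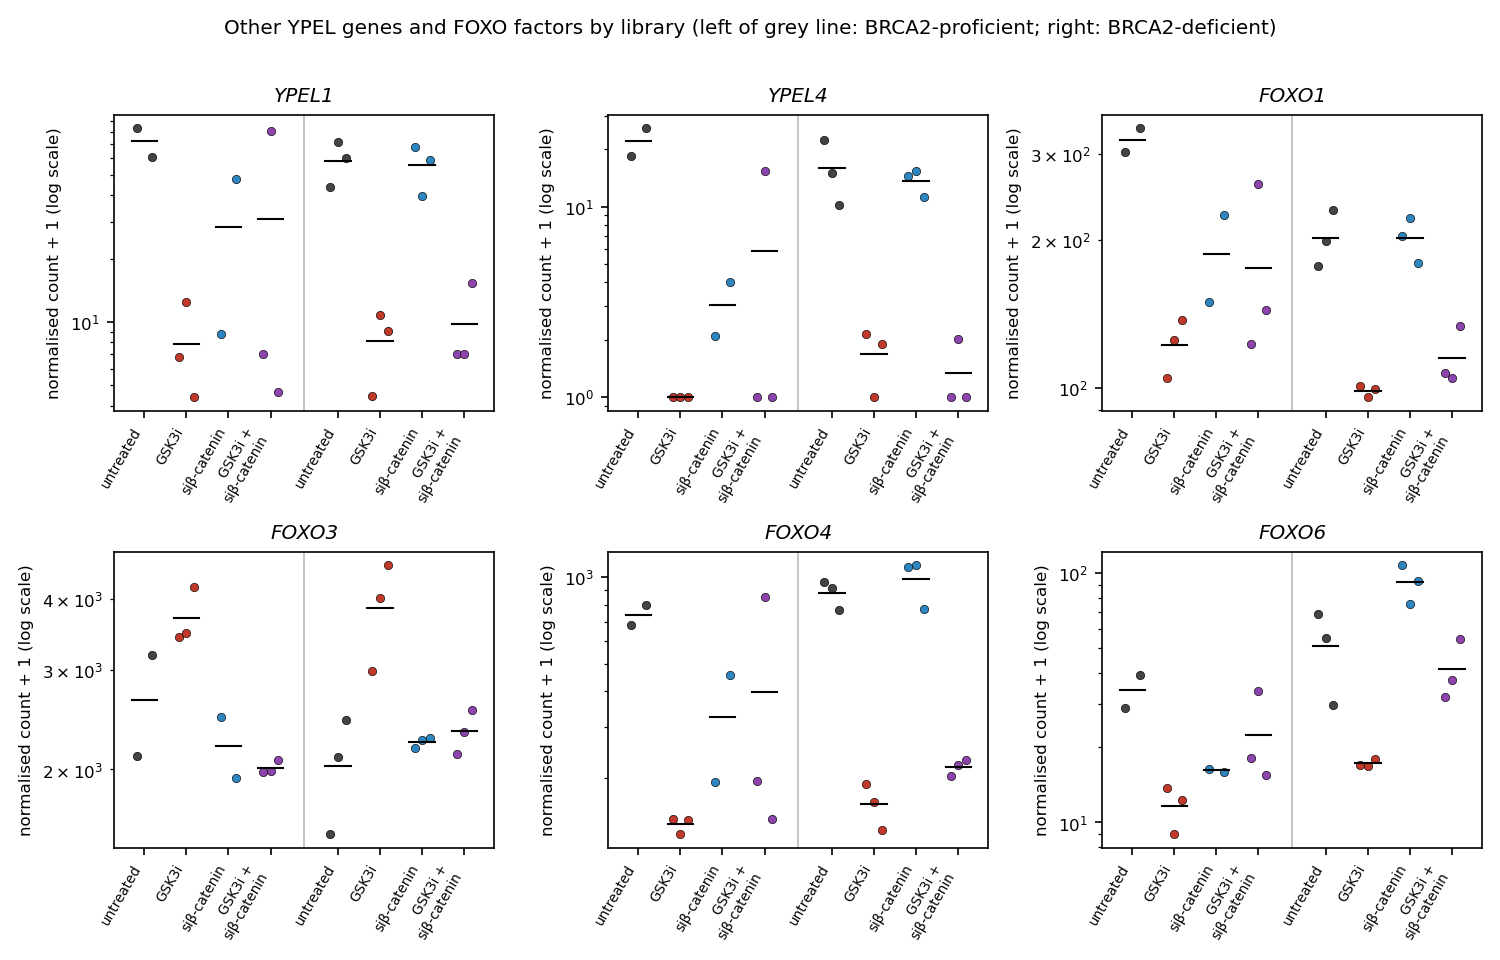
Normalised count + 1 (vertical axes, log scale, each panel with its own range) of YPEL1, YPEL4 and the 4 FOXO factors in every library. Points are libraries and black lines are group means. YPEL1, YPEL4, FOXO1, FOXO4 and FOXO6 stand lower with GSK3i + siβ-catenin than with siβ-catenin in BRCA2-deficient cells, whereas FOXO3 stands higher with GSK3i and control siRNA and near the untreated level with siβ-catenin.

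Other genes of these pathways are described by their counts in the same BRCA2-deficient comparison. The genes named from these lists were chosen after their values were seen. The lists, those of WNT targets and cell cycle genes below included, were chosen with earlier results of these data known. Their counts beside the shares of all genes are therefore a description. Of 25 further FOXO target genes tested, 15 were lower and the other 10 were not called, with a median log2 fold change of −0.76 against 0.01 over all genes, of which 11.5% were called lower. They included PDK4, which limits glucose oxidation (−3.09 ± 0.32), the autophagy gene GABARAPL1 (−1.86 ± 0.15), the pro-apoptotic gene BBC3 (−1.48 ± 0.23) and RBL2, a pocket protein of quiescent cells (−1.42 ± 0.2). The insulin receptor gene INSR (−1.23 ± 0.17) and CDKN1B, which encodes the cell cycle inhibitor p27 (−0.76 ± 0.15), were also called lower. CAT (−0.22 ± 0.19), GADD45A (−0.01 ± 0.49) and BCL2L11 (−0.3 ± 0.18), which are also known FOXO targets, were not called.

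Of 24 further antiproliferative and quiescence genes, 12 were lower and 1 higher, with a median of −0.48, against 11.5% and 8.56% of all genes. KLF2 (−2.46 ± 0.26), HBP1 (−2.34 ± 0.21), KLF9 (−1.77 ± 0.24) and the MYC antagonist MXD4 (−1.7 ± 0.19), all transcription regulators that restrain proliferation, were among those lower. RBL2, CDKN1B and MXI1 stand both on this list and on that of FOXO targets. SESN3 and DDIT4 stand on the FOXO target list and on the list that follows. Of 13 further genes that restrain PI3K, AKT or mTOR, 2 were higher, TRIB3 (0.77 ± 0.19) among them, and 2 lower, SESN3 (−0.56 ± 0.21) among them, with a median of −0.08, numbers near those shares of all genes. Of 7 arrestin-domain and MondoA genes tested, 3 were lower, with a median of −0.19, against the same 11.5%. Of 7 partners and regulators of PDCD4, which include its target eIF4A and the ubiquitin ligase components that turn it over, 0 were called by DESeq2 or edgeR, and 0 had an unadjusted p below 0.05 with either. Of the eIF4A genes, EIF4A1 stood at only 153 to 549 over all libraries, against 4641 to 7648 for EIF4A2. Why EIF4A1 had the lower count was not tested.

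Of 7 known WNT target genes tested, 3 were higher, AXIN2 (0.98 ± 0.27), ZNRF3 (0.73 ± 0.17) and TCF7 (0.68 ± 0.21), and 2 lower, SP5 (−1.3 ± 0.25) and NOTUM (−1.22 ± 0.48). AXIN2, ZNRF3 and TCF7 thus still rose with GSK3i under siβ-catenin, whereas SP5 and NOTUM moved the other way.

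Cell cycle genes stood in the opposite direction. Of 20, 13 were higher with GSK3i in BRCA2-deficient siβ-catenin cells and the other 7 were not called, with a median of 0.64, against 8.56% of all genes called higher. CDC6, a replication licensing factor, changed by 1.32 ± 0.15 and the transcription factor MYBL2 by 1.08 ± 0.27. Between BRCA2-deficient and BRCA2-proficient untreated cells, 19 of the 20 were lower with DESeq2, whereas edgeR called 9, against 4.14% of all genes called lower with DESeq2. The summed level of the 20 genes was 27920 to 47050 in BRCA2-deficient siβ-catenin libraries, 54780 to 62520 with GSK3i + siβ-catenin and 85150 to 104300 in BRCA2-proficient siβ-catenin libraries. It thus moved with the growth-restraining genes, in the opposite direction, in BRCA2-deficient cells. With control siRNA in the BRCA2-proficient background, the sum was 85210 to 96600 untreated and 89540 to 92600 with GSK3i, groups that overlapped, while YPEL2 and PDCD4 stood far lower with GSK3i. In these bulk libraries, a change in the share of cells in one state and a change in RNA per cell cannot be told apart.

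The genes whose pattern over the 22 libraries was most like that of YPEL2 were ENSG00000154035, which has no symbol in the annotation (Pearson's r 0.989), ATG13 (0.982), SMIM14 (0.981), ABTB1 (0.981) and FOXO4 (0.979), of 11898 genes compared on log2 of the normalised count + 1. Those most like PDCD4 were FRG1BP (0.989), ALDH6A1 (0.983), HBP1 (0.983), YIPF4 (0.981) and NBR1 (0.976). Among the 8 genes that fell, the coefficients between pairs were 0.75 to 0.98. SESN1 had coefficients of −0.33 to 0.12 with them. Libraries of one group share their treatment, so these coefficients are a description and carry no test.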

How the data were processed

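Poly(A)-selected, strand-specific RNA-seq libraries, 22 in all, were used. The authors aligned reads to GRCh37 with HISAT2 2.0.4, handled alignments with SAMtools 1.4, removed duplicates with Picard 1.9.2 and assigned unique reads to Ensembl genes with featureCounts 1.5.0, with versions per the submitters' processing notes in the labels. The study's reporting summary names other versions of HISAT2, Picard and featureCounts. The annotation release and strand setting are not given in the sources used here. The deposited table holds raw counts, and 0 of its columns of single samples were left unused. Duplicate removal lowers the counts of abundant genes more than those of others. Symbols and coordinates were taken from GENCODE 44 lifted to GRCh37, which named 29629 of 37908 genes.

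Each comparison was fitted with DESeq2 1.42.0 (R 4.3.3) on its own libraries, with no shrinkage, leaving out genes with fewer than 10 counts in more than 3 libraries (for interactions, genes without 10 counts in at least 3 libraries). A gene was called at a Benjamini-Hochberg adjusted p below 0.05 and a log2 fold change beyond 0.5. Where DESeq2 withheld an adjusted p, none is given. Errors after ± are SE for fold changes and SD for levels. Scripts were tested on simulated counts. Alternatives were edgeR 4.0.16 (quasi-likelihood, TMM), DESeq2 with TMM factors, no filter, the replicate number as a block, one model over all groups and leaving out each library in turn. Fits that leave out libraries test the same genes as the full fit.

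The genes and lists were chosen with earlier results of these data known. All of the genes, every YPEL and FOXO gene, BRCA2, CTNNB1 and AXIN2 are named, with the 5 genes most like YPEL2 and PDCD4 in pattern among those with a mean of at least 100 normalised counts. From each list, up to 4 genes called in the same direction with GSK3i and siβ-catenin in both backgrounds were to be named, and there were none. The labels give replicate numbers only, whereas the study describes its replicates as independent experiments. Libraries with the same number deviated together (correlation of deviations from group means above 0.1 in each of 3 pairs) for GSK3i with control siRNA and with siβ-catenin, and siβ-catenin without GSK3i, in BRCA2-deficient cells, for siβ-catenin under GSK3i in both backgrounds, and for BRCA2 status with GSK3i and with GSK3i + siβ-catenin. There the number was read as a pairing, from the data alone.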

Additional observations from a re-analysis of the deposited data

How the results depend on the processing

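In BRCA2-deficient cells, the 8 genes called lower with GSK3i and siβ-catenin were 8 under every alternative, the replicate block and each left-out library included. Most other counts of called genes, out of 9, depended on the processing. Where leaving out a library left 1 in a group, the count is given only within a range and is not read as a result. In BRCA2-proficient cells, edgeR gave 0 for the effect of siβ-catenin under GSK3i (1 with DESeq2) and 0 for that without GSK3i (5). It gave 0 for BRCA2 depletion in untreated cells (2). DESeq2 with TMM factors gave 1 for siβ-catenin under GSK3i in BRCA2-deficient cells (0), and no filter gave 2 for the same comparison in BRCA2-proficient cells (1). With the replicate block the counts were 3 and 1 for siβ-catenin under GSK3i in proficient and deficient cells, respectively, 1 and 3 for BRCA2 depletion in untreated and siβ-catenin cells, and 1 for the interaction of BRCA2 status with GSK3i under siβ-catenin, and the block moved no other count by more than 1.5 times. The model over all groups gave 6, 0, 0, 1 and 5 for siβ-catenin with and without GSK3i in BRCA2-proficient cells, BRCA2 depletion in untreated and in GSK3i + siβ-catenin cells, and that interaction. Leaving out 1 library gave 0 to 1 for GSK3i with siβ-catenin in BRCA2-proficient cells, 0 to 3 and 0 to 8 for siβ-catenin under and without GSK3i there, 0 to 2, 0 to 1, 4 to 7 and 0 to 1 for BRCA2 depletion in untreated, GSK3i, siβ-catenin and GSK3i + siβ-catenin cells, and 0 to 3 for the interaction.

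With siβ-catenin in BRCA2-proficient cells, estimates above 0 turned to −1.5 for CCNG2 without GSK3i + siβ-catenin replicate 2, and to −3.3 for PDCD4, −2.45 for KLHL24, −2.21 for ABTB1 and −1.92 for CCNG2 without replicate 2 of both groups, where 4 genes were called. Without siβ-catenin replicate 3 the estimates were 1.87 for ABTB1, 1.36 for PDCD4, 2.09 for KLHL24 and 0.88 for CCNG2. For BRCA2 depletion with GSK3i + siβ-catenin, KLHL24 turned from −1.57 to 0.73 without the library labelled BRCA2-proficient GSK3i + siβ-catenin replicate 2 and was −2.06 without replicate 3. The fits left out these libraries by construction, and why the libraries stand apart was not tested. Over the single genes, 1698 of 1804 alternatives were not counted as changed, and 86 more gave no adjusted p. A change of sign without a call was not counted as a reversal, so the 1698 do not show that direction was kept. For PDCD4 in the BRCA2-proficient background, the effect of adding siβ-catenin to GSK3i was 2.33 ± 1.27 and fell to −0.47 in an alternative. The YPEL2 difference for BRCA2 depletion with GSK3i + siβ-catenin was −1.59 ± 1.2 and rose to 0.92 in an alternative. Neither was counted as reversed. YPEL1, YPEL4 and, with GSK3i, YPEL2 have few counts, so depth limits their fold changes.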
